A study of Mus musculus with 2 samples.

Results

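The 10 genes described here encode 5 adaptors of the TRAF family (Traf1, Traf2, Traf3, Traf5 and Traf6), 4 subunits of the transcription factor NF-kB (Nfkb1, Nfkb2, Rel and Relb) and the inhibitor Nfkbia. They were taken by symbol from a table of 12860 genes measured by RNA sequencing of mouse bone marrow, and all 10 were found, with counts in both libraries. The remaining subunit gene, Rela, is given beside them. The P95H library came from a female C57BL/6 mouse of 14 weeks, heterozygous for a knock-in of the Srsf2 P95H change, and the WT library from a male C57BL/6 mouse of 12 weeks with Srsf2 WT alleles. Both mice carried the R26CreERT2 allele, a tamoxifen-activated Cre recombinase expressed from the Rosa26 locus, and both received tamoxifen in vivo. The Rosa26 locus is active in most tissues, so recombination with this Cre is not restricted to blood cells. Srsf2 encodes an SR protein, a class of splicing factors, and the P95H change is found in human myeloid neoplasms. The comparison asks how marrow transcripts differ when the mutant protein is made from its own locus.

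TRAF proteins bind the cytoplasmic tails of tumour necrosis factor receptors or the adaptors of Toll-like and interleukin 1 receptors, and most act as ubiquitin ligases. From there the signal passes to the IkB kinases. In the classical branch the kinases mark the inhibitor IkB alpha, the product of Nfkbia, for destruction, which frees dimers of Nfkb1, Rela and Rel products to enter the nucleus. In the alternative branch, used by receptors such as BAFF receptor, CD40 and the lymphotoxin beta receptor, loss of TRAF3 lets the kinase encoded by Map3k14 build up, and the precursor made from Nfkb2 is cut and works with RelB. In marrow both branches serve B cell survival and maturation, and the classical branch serves the inflammatory responses of neutrophils and monocytes.

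Counts summed over the table came to 42366695 for the P95H mouse and 44733445 for the WT mouse. With 1 mouse per genotype, no difference has a replicate check and no p-value was computed, and genotype, sex, age and individual cannot be told apart. CPM are the authors' read counts divided by a scaled library size. Ratios are P95H over WT, and the brackets hold 95% intervals for counting error alone. The difference of a gene is its log2(CPM + 1) in P95H less that in WT, a scale on which low genes look closer than they are. A gene is called past a fold when this difference reaches the log2 of that fold. The 10 genes were chosen with results of these libraries known, so their values are a description. The marrow was not sorted, and in such bulk RNA fewer cells of a type and less RNA per cell cannot be told apart.

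Among the TRAF adaptors, Traf5 and Traf1 were lower in P95H marrow, while Traf2, Traf3 and Traf6 lay close to WT. Traf5 (Entrez 22033), an adaptor of lymphocyte receptors such as CD40 and CD27, had 190 counts in P95H marrow and 480 in WT marrow, which is 4.79 against 10.02 CPM. Its ratio was 0.477 (0.401 to 0.566) and its difference -0.93. Traf5 thus lay past 1.5-fold lower, and its ratio below 0.5 did not become a 2-fold call only because 1 CPM was added to each value. Traf1 (Entrez 22029), which lacks the RING domain of the other TRAF proteins described here and is itself induced by NF-kB, had 108 counts in P95H marrow and 233 in WT marrow. In CPM this was 2.72 against 4.87, giving a ratio of 0.559 (0.441 to 0.705). The difference was -0.66, short of 1.5-fold at -0.35 if 5 CPM were added to each value in place of 1. Both genes had fewer counts than the other 8 members, and their intervals were the widest relative to the ratio.

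Traf2 (Entrez 22030) binds tumour necrosis factor receptors and recruits the cellular inhibitor of apoptosis ligases. It had 705 counts in P95H marrow and 918 in WT marrow, 17.8 against 19.2 CPM, with a ratio of 0.926 (0.839 to 1.02). Traf3 (Entrez 22031), which restrains the alternative branch and also serves antiviral signalling, had 1782 counts against 2170 and 44.9 CPM in P95H marrow against 45.3 CPM in WT marrow. The Traf3 ratio was 0.991 (0.9298 to 1.06). For both adaptors the counting interval held 1 at the authors' scaling, but lay below 1 with plain totals of the listed counts, at 0.734 to 0.895 for Traf2 and 0.814 to 0.924 for Traf3, so the reading turns on the scaling. Traf6 (Entrez 22034), the adaptor that Toll-like and interleukin 1 receptors use, had 2743 counts in P95H marrow and 3086 in WT marrow. At 69.1 against 64.5 CPM its ratio was 1.07 (1.02 to 1.13), a small excess with an interval above 1 at the authors' scaling. With plain totals the Traf6 ratio was 0.939 (0.891 to 0.988), below 1.

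Of the NF-kB subunits, Rel and Relb were lower in P95H marrow by nearly equal ratios, while Nfkb1 and Nfkb2 lay nearer to WT. Rel (Entrez 19696), the c-Rel subunit prominent in lymphocytes, had 1347 counts in P95H marrow and 2104 in WT marrow, 33.9 against 43.9 CPM. The Rel ratio was 0.772 (0.721 to 0.827) and the difference -0.36. Relb (Entrez 19698), the partner of the Nfkb2 product in the alternative branch, had 537 counts against 836 and 13.5 CPM in P95H marrow against 17.5 CPM in WT marrow. Its ratio was 0.775 (0.694 to 0.865) and its difference -0.35. Neither gene reached 1.5-fold.

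Nfkb2 (Entrez 18034) had 2242 counts in P95H marrow and 2917 in WT marrow, 56.5 against 60.9 CPM, giving a ratio of 0.927 (0.877 to 0.980). The difference was -0.11. In the GENCODE vM21 annotation, 18.1% of Nfkb2 exon bases overlap genes on the opposite strand, and for Traf5 5.91% overlap other genes. The sources used here do not say whether the authors counted by strand, so part of these counts may belong to the neighbours. The other 8 members had no such overlap. Nfkb1 (Entrez 18033), the precursor gene of the classical branch, had 6052 counts in P95H marrow and 6868 in WT marrow, 152 against 143 CPM. Its ratio was 1.06 (1.03 to 1.10) and its difference 0.09. Rela (Entrez 19697), the main activating subunit and no member of the set, had 3040 counts in P95H marrow and 3016 in WT marrow, 76.6 against 63.0 CPM. At a ratio of 1.22 (1.16 to 1.28), or a difference of 0.28, it stood highest of the 5 subunit genes.

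Nfkbia (Entrez 18035), which encodes the inhibitor that NF-kB itself induces as feedback, was the most abundant member. It had 13378 counts in P95H marrow and 14421 in WT marrow, 337 against 301 CPM. The ratio was 1.12 (1.09 to 1.15) and the difference 0.16, the highest of the 10 members.

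**Figure D1:**
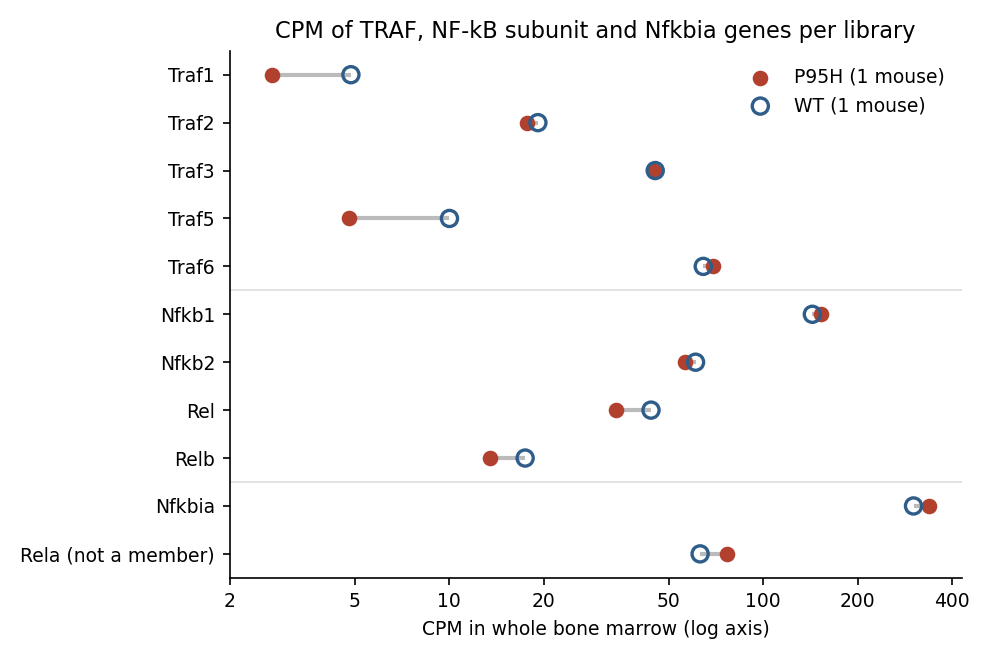
CPM of the 10 members and of Rela in P95H marrow (filled) and the WT library (open), 1 mouse each, on a log axis, with the adaptors at the top, the subunits below them, and Nfkbia and Rela last. The gap is widest for Traf5 (4.79 against 10.02 CPM) and Traf1 (2.72 against 4.87 CPM), and the points for Traf3 nearly coincide.

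Read as a set, 0 of 10 members were at least 2-fold higher or lower, beside 1.76% of all genes at least 2-fold higher and 2.10% at least 2-fold lower. At 1.5-fold, 0 members were higher and 2 were lower (Traf1 and Traf5), beside 7.05% of all genes higher and 8.08% lower. The counting interval lay wholly below 1 for 5 members (Traf1, Traf5, Nfkb2, Rel and Relb), beside 32.8% of all genes, and wholly above 1 for 3 (Traf6, Nfkb1 and Nfkbia), beside 34.1%. With plain totals these counts were 9 below and 0 above, beside 54.3% and 19% of all genes. With totals that leave out haemoglobin and the most abundant genes they were 8 below and 0 above, beside 48.5% and 22.7%. The median difference of the 10 was -0.11, with 7 below 0, and that of all genes was 0.00 rounded, with 50.3% below 0. The members were chosen on these values, so nothing is read from these counts.

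The small differences depend on how the libraries were scaled. With plain totals of the listed counts, which moved the median of all genes to -0.18, Traf6 was at -0.09, Nfkb1 at -0.10 and Nfkbia at -0.03, and 0 of 10 members lay above 0. With reduced totals, which leave out haemoglobin and the most abundant genes and moved the median of all genes to -0.13, Traf6 was at -0.04, Nfkb1 at -0.05 and Nfkbia at 0.02. Traf5 then passed 2-fold, at -1.10 with plain totals and -1.08 with the reduced totals. Traf1, Traf2, Traf3, Traf5, Nfkb2, Rel and Relb were below 0 under all the scalings run, and Rela was above 0 under all of them. The scalings moved log2 ratios by between -0.19 and 0.004. The signs of these genes were thus fixed by their values with the deposited CPM.

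**Figure D2:**
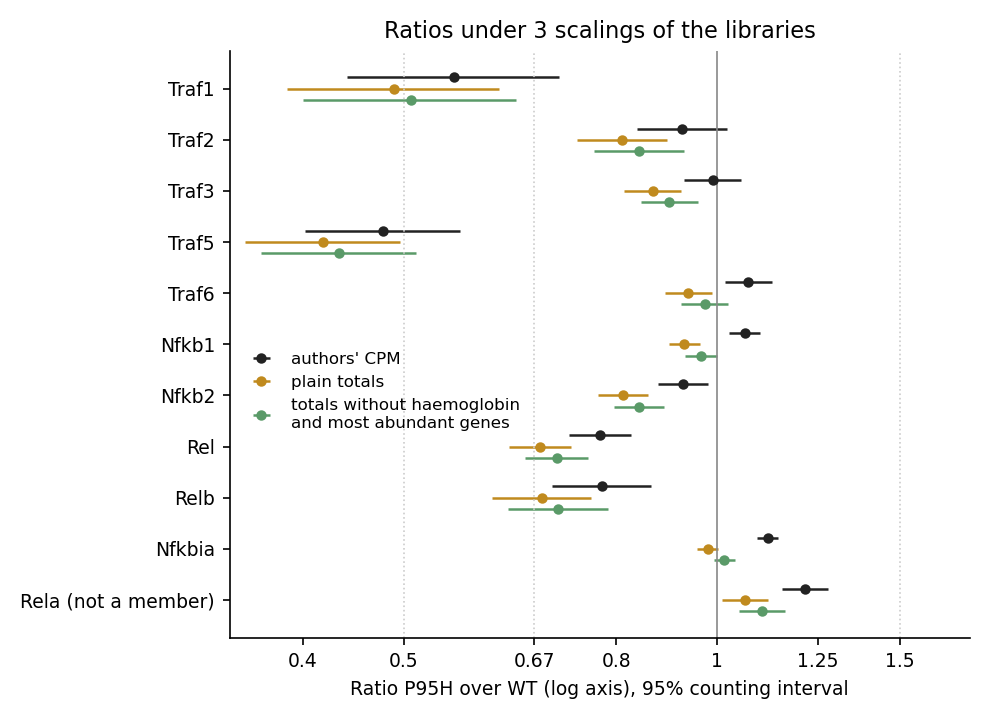
Ratio of P95H over WT for each member and Rela on a log axis, with 95% counting intervals, under the authors' CPM (black), plain totals (ochre) and totals that leave out haemoglobin and the most abundant genes (green). Dotted lines mark ratios of 0.5, 1/1.5 and 1.5. Traf5 and Traf1 lie farthest left in every scaling, and Traf6, Nfkb1 and Nfkbia change side with plain totals.

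Levels of different genes were compared per kilobase of exon, with lengths from GENCODE vM21, which uses a later build than the authors' mm9. By union exon length, Nfkbia stood highest, at 209 CPM per kilobase in P95H marrow and 187 in WT marrow. Traf1 stood lowest, at 0.308 and 0.552 CPM per kilobase. Rela, no member of the set, stood above the other subunit genes, at 24.9 CPM per kilobase in P95H marrow and 20.5 in WT marrow. Nfkb1 and Nfkb2 lay side by side at 12.6 and 12.3 CPM per kilobase in P95H marrow and at 11.9 and 13.3 in WT marrow, so their order differs between the libraries. Traf6 (8.77 in P95H marrow and 8.18 in WT marrow) and Traf3 (6.11 and 6.17) came next. Rel (4.54 and 5.89), Relb (3.48 and 4.49) and Traf2 (3.48 and 3.76) followed, and Traf5 (1.05 and 2.20) was above Traf1 alone. The longest transcript of each gene was an alternative length added after seeing the data. By it, the 6 highest members in both libraries were again Nfkbia, Nfkb1, Nfkb2, Traf6, Traf3 and Rel, now in this order in each. Nfkb1 then stood clear of Nfkb2, at 36.7 against 14.7 CPM per kilobase in P95H marrow and at 34.6 against 15.8 in WT marrow. Rela lay between them, at 28.2 and 23.2. The order of the lower genes changed with the length used, except that Traf1 was last in each case.

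Ratios of reads between genes of the same library do not depend on scaling. For every 100 Traf2 reads there were 27.0 Traf5 reads in P95H marrow and 52.3 in WT marrow, an odds ratio of 0.516 (0.422 to 0.629). Traf1 had 15.3 reads per 100 Traf2 reads in P95H marrow and 25.4 in WT marrow, an odds ratio of 0.604 (0.466 to 0.778). Traf3 to Traf2 was at 1.07 (0.9502 to 1.204) and Traf6 to Traf2 at 1.16 (1.03 to 1.29). Thus Traf1 and Traf5 were lower relative to Traf2, which shares their receptors in part, and their own ratio to each other was 1.17 (0.872 to 1.57), an interval that holds 1.

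Among the subunits, Rel had 22.3 reads per 100 Nfkb1 reads in P95H marrow and 30.6 in WT marrow, an odds ratio of 0.727 (0.672 to 0.785). Nfkb2 to Nfkb1 was at 0.872 (0.817 to 0.931), and Relb to Nfkb2, the alternative pair, at 0.836 (0.738 to 0.945). Relb to Rel was at 1.00 (0.881 to 1.14), with 39.9 Relb reads per 100 Rel reads in P95H marrow and 39.7 in WT marrow. Nfkbia had 993 reads per 100 Rel reads in P95H marrow and 685 in WT marrow, an odds ratio of 1.45 (1.35 to 1.56), and against Nfkb1 the odds ratio was 1.05 (1.01 to 1.10). Of the 12 pairs, 6 intervals lay wholly below 1, 3 wholly above 1 and 3 held 1. Over all genes, the interval of the single-gene ratio lay wholly below 1 for 32.8% and wholly above 1 for 34.1%. The side of a pair depends on which gene is written first, and genes such as Traf2 and Traf5 recur. Nothing is therefore read from this count. Set against Rela instead, all 8 members so compared had intervals below 1, among them Rel at 0.635 (0.583 to 0.692), Relb at 0.637 (0.564 to 0.719) and Traf6 at 0.882 (0.820 to 0.948). The ratio of Rela (1.22) was above that of every member (at most 1.12), so all these ratios were bound to lie below 1.

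**Figure D3:**
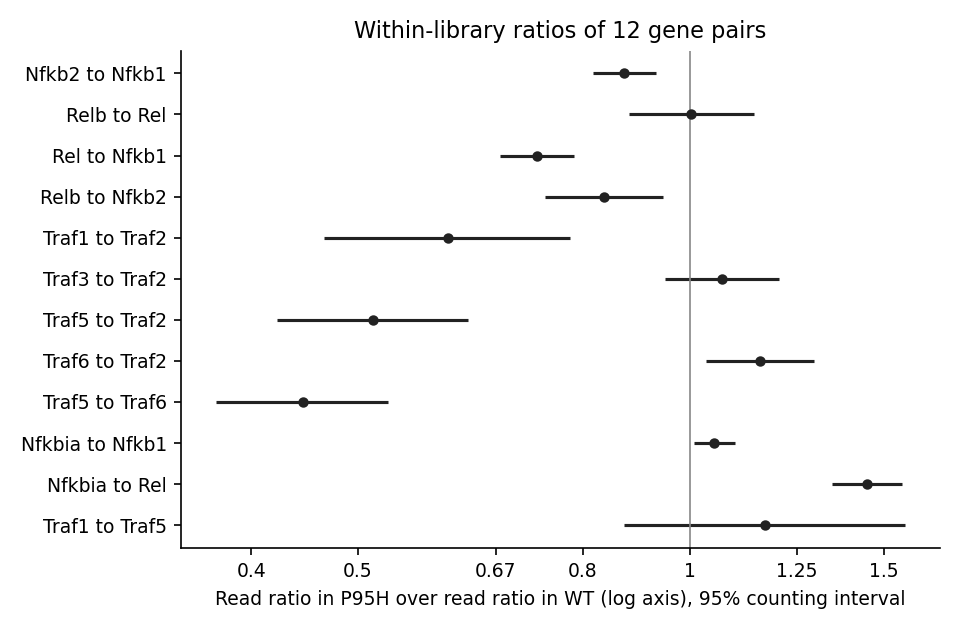
Ratio of the reads of 2 genes in P95H marrow over the same ratio in WT marrow, for 12 pairs of members, on a log axis with 95% counting intervals. Traf5 and Traf1 set against Traf2, Traf5 against Traf6 and Rel against Nfkb1 lie left of 1, Traf1 to Traf5 spans 1, Relb to Rel lies at 1, and Nfkbia to Rel lies farthest right.

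Several of these genes are known in mouse or human cells to be induced by NF-kB itself, so their promoters were searched for its binding consensus. RefSeq promoters of GRCm38.p6, from 250 bases before to 50 bases after a start site, were matched for 8 of the 10 members and for Rela, and none was matched for Nfkb1 and Relb. The kappa B consensus, 10 bases long, was searched on both strands, and overlapping matches were joined into a single stretch. Matches stood in Nfkb2, Nfkbia, Rel and Traf3, and in none of the windows of Traf1, Traf2, Traf5, Traf6 and Rela. Of all 32851 promoters of this length in the table, 4.51% held a match, and of the 9861 measured genes with a promoter, 5.98%. A match is a description of letters and was not tied to binding here.

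The promoters with a match are shown because they belong to members with different readings, Rel at -0.36, Nfkb2 at -0.11, Traf3 at -0.01 and Nfkbia at 0.16, and those of Traf5 and Traf1 because these genes stood lowest. They are written 5′ to 3′ on the strand of the gene, with capitals for the kappa B matches. The windows are chr19:46304487-46304786 (plus strand, the most upstream of 3 start sites) for Nfkb2, chr12:55492598-55492897 (minus) for Nfkbia, chr11:23770920-23771219 (minus) for Rel, chr12:111166120-111166419 (plus) for Traf3, chr1:192092550-192092849 (minus) for Traf5 and chr2:34961723-34962022 (minus) for Traf1.
Nfkb2: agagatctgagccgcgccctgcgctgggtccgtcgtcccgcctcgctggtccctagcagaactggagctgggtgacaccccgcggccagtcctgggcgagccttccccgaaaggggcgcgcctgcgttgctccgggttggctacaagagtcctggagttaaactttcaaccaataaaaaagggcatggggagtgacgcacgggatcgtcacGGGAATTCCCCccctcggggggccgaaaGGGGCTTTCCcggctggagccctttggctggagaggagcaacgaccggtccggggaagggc
Nfkbia: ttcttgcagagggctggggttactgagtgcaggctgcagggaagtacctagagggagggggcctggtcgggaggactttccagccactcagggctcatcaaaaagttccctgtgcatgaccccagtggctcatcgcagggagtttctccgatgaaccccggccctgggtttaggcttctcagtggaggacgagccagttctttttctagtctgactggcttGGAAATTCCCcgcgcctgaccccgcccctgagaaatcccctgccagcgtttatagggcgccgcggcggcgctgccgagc
Rel: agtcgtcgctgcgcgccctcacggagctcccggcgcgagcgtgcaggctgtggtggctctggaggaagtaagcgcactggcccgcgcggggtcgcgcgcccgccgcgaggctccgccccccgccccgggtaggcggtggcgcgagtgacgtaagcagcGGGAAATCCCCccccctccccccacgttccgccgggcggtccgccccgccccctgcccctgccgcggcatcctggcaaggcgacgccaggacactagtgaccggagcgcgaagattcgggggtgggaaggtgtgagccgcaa
Traf3: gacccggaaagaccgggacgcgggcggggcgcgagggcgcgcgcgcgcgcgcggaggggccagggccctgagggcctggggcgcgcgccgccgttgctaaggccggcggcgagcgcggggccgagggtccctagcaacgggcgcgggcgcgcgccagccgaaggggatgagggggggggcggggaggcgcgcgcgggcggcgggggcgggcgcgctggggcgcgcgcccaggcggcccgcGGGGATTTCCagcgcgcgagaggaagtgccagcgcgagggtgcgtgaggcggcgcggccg
Traf5: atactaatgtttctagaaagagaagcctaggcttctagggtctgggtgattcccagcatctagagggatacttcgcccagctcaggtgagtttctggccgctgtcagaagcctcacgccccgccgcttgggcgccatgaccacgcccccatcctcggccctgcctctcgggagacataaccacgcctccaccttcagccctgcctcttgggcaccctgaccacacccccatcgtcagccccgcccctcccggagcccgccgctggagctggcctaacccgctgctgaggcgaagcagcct
Traf1: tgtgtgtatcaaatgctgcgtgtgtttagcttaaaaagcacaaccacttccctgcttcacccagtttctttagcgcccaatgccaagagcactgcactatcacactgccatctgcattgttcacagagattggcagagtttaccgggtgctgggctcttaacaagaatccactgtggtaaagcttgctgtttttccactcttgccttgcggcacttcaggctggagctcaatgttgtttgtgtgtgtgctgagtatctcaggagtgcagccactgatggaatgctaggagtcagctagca

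The Nfkb2 window holds 2 stretches, GGGAATTCCCC from base -39 and GGGGCTTTCC from base -11 relative to the start site. Nfkbia has GGAAATTCCC from base -29, Rel has GGGAAATCCCC from base -92, and Traf3 has GGGGATTTCC from base -10. Members with a match lay on both sides of 0, and whether a match bears on these differences was not tested. Over all measured genes the median difference was 0.01 for the 590 with a match and 0.00 rounded for the 9271 without. In the list of known NF-kB target genes described below, 9 of 18 genes with a promoter held a match.

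Other genes of the pathway were grouped by role, with 104 listed and 90 measured outside the 10 members. Of these 90, 0 were at least 2-fold higher and 4 at least 2-fold lower, 12 were at least 1.5-fold higher and 12 at least 1.5-fold lower, and 66 lay between, beside the shares of all genes given above (1.76%, 2.10%, 7.05% and 8.08%). Their median difference was 0.06. The balance of 1.5-fold calls depends on scaling, with 7 higher against 16 lower under plain totals (all genes 3.89% and 13.4%), and 8 against 15 under the reduced totals (4.90% and 12.5%). Tnfrsf1a, Ltbr, Tnf and Card9 lost their 1.5-fold call under both, at 0.50, 0.46, 0.44 and 0.51 with plain totals. Card9, an adaptor of myeloid lectin receptors, is named after its value was seen. Ikbke lost its call under plain totals alone, at 0.55. Map3k14 gained a call as lower, at -0.76 with plain totals, and Traf4, Tnfaip3 and Il6 then passed 2-fold lower.

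Among 14 measured receptors of the tumour necrosis factor family, 2 were at least 1.5-fold higher, 1 was lower and 11 passed neither limit. Their median difference was 0.24, and 0.07 with plain totals and 0.12 with the reduced totals. Without the receptors below a CPM of 10 in both libraries, it was 0.37 with the deposited CPM. Tnfrsf13c, the BAFF receptor of B cells, had 366 counts in P95H marrow and 1159 in WT marrow, 9.22 against 24.2 CPM, so that its ratio was 0.381 (0.338 to 0.429), a difference of -1.30. Tnfrsf1a, the widely expressed tumour necrosis factor receptor, had 8876 counts against 6625, a ratio of 1.62 (1.57 to 1.67). Ltbr, the lymphotoxin beta receptor of myeloid and stromal cells, had 2050 counts in P95H marrow and 1564 in WT marrow, a ratio of 1.58 (1.48 to 1.69). Of 9 measured ligands, 2 were at least 1.5-fold higher and 1 lower, with a median of -0.16. Without the ligands below a CPM of 10 in both libraries, that median was 0.26. With all 9 ligands it was -0.30 with plain totals and -0.28 with the reduced totals. Tnf itself had 1657 counts in P95H marrow and 1274 in WT marrow, a ratio of 1.57 (1.46 to 1.69). Tnfsf14 and the BAFF gene Tnfsf13b were at 0.29 and 0.24 and passed no fold.

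The list of other adaptors, with 19 of 19 genes measured, held 3 genes at least 1.5-fold higher and 3 lower, with a median difference of 0.20 that shrank to 0.01 with plain totals and 0.06 with the reduced totals. Traf4, a TRAF gene outside the set, had 668 counts in P95H marrow and 1511 in WT marrow, 16.8 against 31.6 CPM, with a ratio of 0.533 (0.486 to 0.585). The further TRAF gene Traf7 was at 0.20. Myd88, the adaptor of most Toll-like receptors and of interleukin 1 receptors, upstream of Traf6, had 3020 counts in P95H marrow and 1869 in WT marrow. Its ratio was 1.95 (1.84 to 2.07) and its difference 0.95.

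Of 11 kinase genes, 1 was at least 1.5-fold higher and 0 were lower, with a median of -0.03. The kinase median was -0.22 with plain totals and -0.17 with the reduced totals. Ikbke, an IkB kinase relative of the antiviral branch, had 1869 counts in P95H marrow and 1331 in WT marrow, a ratio of 1.69 (1.58 to 1.82). Map3k14, the kinase of the alternative branch that Traf2 and Traf3 hold in check, had 450 counts against 835 and a difference of -0.58, just inside the limit of 0.585. Ikbkg, the regulatory subunit of the IkB kinases and a gene of the X chromosome, was at 0.38. The catalytic subunit genes Chuk and Ikbkb, chosen after their values were seen, were at -0.03 and -0.11.

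Of 13 measured ubiquitin and scaffold genes, 0 were at least 1.5-fold higher and 1 was lower, with a median of 0.04. That median changed sign with scaling, to -0.14 for plain totals and -0.09 for the reduced totals. The lower gene was Tnfaip3, which encodes A20, a feedback inhibitor of TRAF signalling. It had 7987 counts in P95H marrow and 18150 in WT marrow, 201 against 379 CPM, with a ratio of 0.531 (0.517 to 0.545), or a difference of -0.91. Rnf31, of the linear ubiquitin ligase, and Tnip2, an A20 partner, were at 0.39 and 0.32. Of the 6 genes listed as other inhibitors, 2 were at least 1.5-fold higher and 0 lower, with a median of 0.38. This median was 0.19 with plain totals and 0.25 with the reduced totals. Bcl3, an atypical IkB protein that binds the Nfkb1 and Nfkb2 products, had 1277 counts in P95H marrow and 770 in WT marrow, a ratio of 2.00 (1.83 to 2.19). Nfkbiz, another atypical IkB, had 14108 counts against 9811, a ratio of 1.73 (1.69 to 1.78), and Nfkbil1 was at 0.56. The rest of the list, named after their values were seen, were Nfkbib at 0.19, Nfkbid at -0.29 and Nfkbie at -0.40. This list mixes classical and atypical IkB genes, so its median is not a measure of inhibition.

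Known target genes of NF-kB went in both directions. Of 23 measured, 4 were at least 1.5-fold higher, 7 lower and 12 neither, beside 7.05% of all genes higher and 8.08% lower. Their median was -0.32. The target median was -0.51 with plain totals and -0.45 with the reduced totals, where the medians of all genes were -0.18 and -0.13. Without the targets below a CPM of 10 in both libraries, it was -0.22 with the deposited CPM. Cd83, a surface protein of activated B cells and dendritic cells, had 525 counts in P95H marrow and 2827 in WT marrow. Its ratio was 0.224 (0.204 to 0.246) and its difference -2.08. Ccl4, a chemokine, had 523 counts against 1373, a difference of -1.07, and the cytokine gene Il6 206 against 527, a difference of -0.96. The genes at least 1.5-fold higher, named after their values were seen, were Tnf, Nfkbiz, Cxcl2 and Plaur, the last 2 both at 0.82. The target list shares Tnf, Tnfaip3, Birc3, Nfkbie and Nfkbiz with the other lists.

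**Figure D4:**
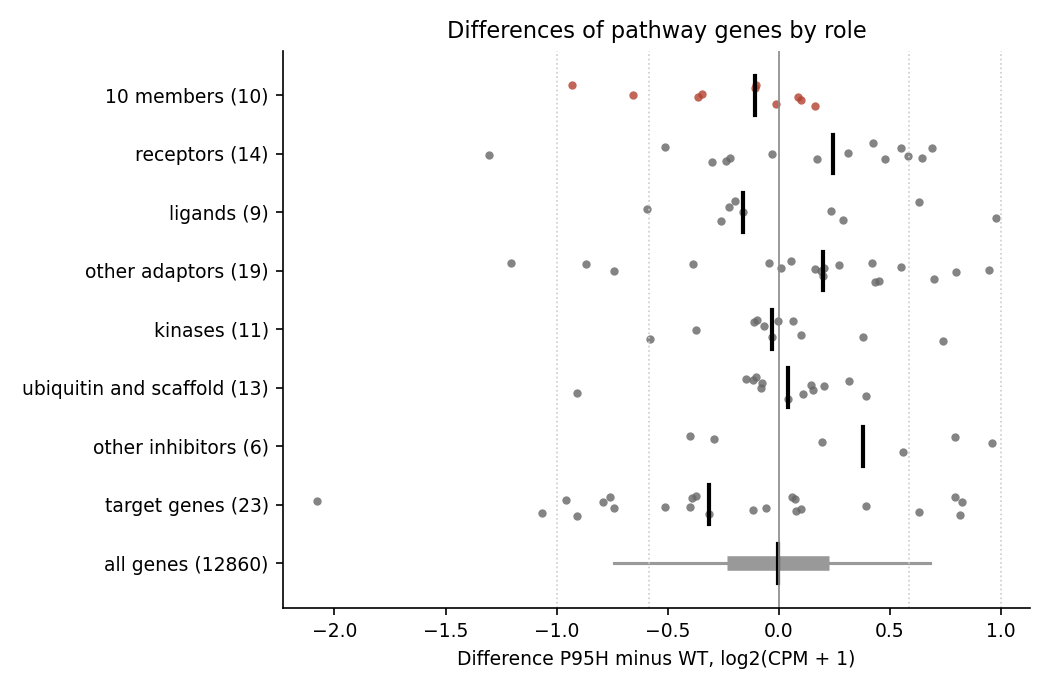
Differences between P95H and WT on the log2(CPM + 1) scale for the 10 members (red) and for 7 lists of pathway genes by role (grey), with the number measured in brackets and a black bar at each median. The bottom row gives all 12860 genes (thick bar, 25th to 75th percentile, -0.23 to 0.22; thin line, 5th to 95th percentile, -0.74 to 0.68), and dotted lines mark 1.5-fold and 2-fold. The members span -0.93 to 0.16, a narrower range than the receptors, adaptors or targets.

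Markers of several marrow cell types differed between the libraries by more than most of the 10 members. The table lists only genes above a CPM of 1 in at least 1 library, so a marker's presence in it does not test the tissue label. Genes of erythroid precursors, which marrow holds, were abundant, with Slc4a1, the red cell anion exchanger, at 1870 CPM in P95H marrow and 2483 CPM in WT marrow. Of 8 B cell markers, 8 were at least 2-fold lower in P95H marrow, with ratios from 0.160 to 0.302. Together they took 0.0117% of counts in P95H marrow (exact binomial interval 0.0114 to 0.0121) and 0.0497% in WT marrow (0.0491 to 0.0504), with Cd79b at 1784 counts in P95H marrow and 7346 in WT marrow. Of 6 natural killer cell markers, 5 were at least 2-fold lower, with ratios from 0.156 to 0.399 and summed shares of 0.000529% in P95H marrow and 0.00254% in WT marrow. Of 7 T cell markers, 0 were at least 2-fold lower, with ratios from 0.535 to 0.762 and summed shares of 0.00191% and 0.00341%. Shares here are of plain totals of counts, while ratios use the deposited CPM, a different scaling. The ratio of summed CPM was 0.269 for B cells, 0.238 for natural killer cells and 0.641 for T cells.

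Of 8 neutrophil markers, 2 were at least 2-fold higher and 8 at least 1.5-fold higher, and together they took 6.64% of counts in P95H marrow (6.63 to 6.64) and 3.97% in WT marrow (3.97 to 3.98). The ratio of summed CPM for neutrophils was 1.91. The monocyte and macrophage list went both ways. Of its 7 genes, 3 passed 1.5-fold upward and 0 downward, and Adgre1 and Ms4a7, named after their values were seen, had ratios of 0.790 and 0.685. Its ratio of summed CPM was 1.71 (1.70 to 1.73), and 1.47 (1.45 to 1.49) without Cd14, which alone stood at 4.97. The ratio of summed CPM was 0.624 (0.591 to 0.660) for dendritic cells, 0.535 (0.530 to 0.539) for eosinophils, 0.690 (0.686 to 0.695) for erythroid cells, 0.689 (0.646 to 0.735) for megakaryocytes and 0.616 (0.597 to 0.635) for stroma and endothelium. Of 5 genes of other tissues, Gfap was the only one with a row in the table, at 10.9 CPM in P95H marrow and 11.8 CPM in WT marrow.

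The ratios of Traf5 (0.477) and Traf1 (0.559) lay above those of all 8 B cell markers and all 6 natural killer cell markers and below those of all 8 neutrophil markers. The Traf5 ratio was below those of all 7 T cell markers, while 2 of the 7 lay below that of Traf1. Both genes lay within the ranges of the dendritic cell (0.422 to 1.21), eosinophil (0.368 to 0.816), megakaryocyte (0.474 to 0.869) and stroma and endothelium (0.471 to 0.876) markers. Traf1 lay within the erythroid range (0.504 to 0.891), and Traf5 below it. Both lay below every monocyte and macrophage marker. Rel and Relb, at 0.772 and 0.775, lay above every B, natural killer and T cell marker and below every neutrophil marker. They lay within the ranges of the dendritic cell, eosinophil, erythroid, megakaryocyte, monocyte and stromal markers. For every 100 reads of the B cell gene Cd79a there were 21.4 Traf5 reads in P95H marrow and 12.8 in WT marrow, an odds ratio of 1.66 (1.38 to 2.00), and 12.1 Traf1 reads against 6.23, an odds ratio of 1.95 (1.52 to 2.49). These marker shifts run beside the lower readings of Traf1, Traf5, Rel, Relb, Tnfrsf13c and Cd83, and beside the higher readings of Myd88, Tnfrsf1a and Nfkbiz, and their part in them was not tested.

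**Figure D5:**
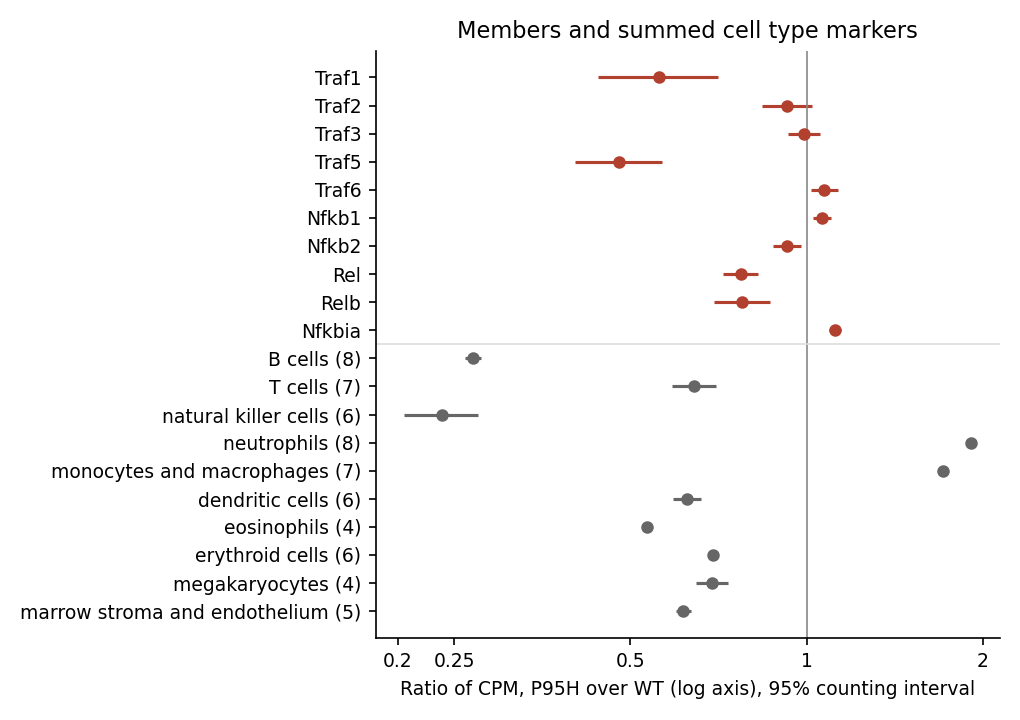
Ratio of CPM, P95H over WT, for the 10 members (red) and for the summed CPM of 10 lists of cell type markers (grey, number measured in brackets), on a log axis with 95% counting intervals. Members lie between 0.477 and 1.12, while the B cell and natural killer cell lists lie below 0.3 and the neutrophil and monocyte lists above 1.7.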

How the data were processed

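RNA of whole bone marrow of 1 P95H mouse and 1 WT mouse was depleted of ribosomal RNA and sequenced as 75 bp paired reads from stranded libraries amplified for 9 PCR cycles, per the labels' protocols. Tools named in the submitters' processing notes, with no roles, are STAR 2.5.3a, featureCounts, edgeR, Picard 1.96, cutadapt and Trim Galore, with mm9 as the build. The use of strand in counting is not stated there. Raw read counts per gene are as the authors deposited them. Their CPM columns, also deposited by the authors and a normalised signal, equal the counts divided by effective library sizes of 39696495 (P95H) and 47880724 (WT) reads, so its columns sum to 1067265 and 934268. The authors' deposited log2 fold change and fold (ratio) columns were not used.

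Differences were computed as log2(CPM + 1). Ratios have exact conditional binomial intervals and read ratios between genes exact conditional odds ratio intervals, both at 95% (scipy 1.17.1). Other scalings used TMM factors from edgeR 4.0.16 and median-of-ratios size factors. Reads carry no molecular identifiers, so intervals cover counting error only. The members and gene lists were chosen with earlier results of these data known. Pathway genes are named by rule, at most 3 per list by absolute difference where either library reached 5 CPM, and markers at most 2 per list by summed CPM. Where a gene outside this rule is named, the text mostly says that it was picked with its values in view. Traf7 and Cd14 also lie outside the rule and carry no such mark. Pairs with Cd79a were added after seeing the data. No gene is named for a likeness of pattern, since 2 libraries give 1 ratio per gene. Some genes that the rule names are not reported here. Calculations were tested on simulated data.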

Additional observations from a re-analysis of the deposited data

How the results depend on the processing

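Counts of members past a fold changed where Traf5 or Traf1 crossed a limit. The number at least 2-fold lower, 0 with the deposited CPM and a pseudocount of 1, was 1 (Traf5) with a pseudocount of 0.1, with plain totals, and with reduced totals that leave out haemoglobin and the most abundant genes. The number at least 1.5-fold lower, 2 as reported, was 1 (Traf5) with a pseudocount of 5, and 1 when a CPM of at least 10 in 1 library was required, which removes Traf1. The members' median difference of -0.11 was -0.29 with plain totals and -0.24 with the reduced totals, settings that moved the median of all genes to -0.18 and -0.13. Of the pathway genes outside the set, the 4 at least 2-fold lower became 2 with a pseudocount of 5 and 7 with either of these totals, the 0 at least 2-fold higher became 1 with a pseudocount of 0.1, and the 12 at least 1.5-fold higher became 7 with plain totals. Members with a counting interval wholly below 1, 5 as reported, numbered 9 with plain totals and 8 with the reduced totals, beside 54.3% and 48.5% of all genes. The 3 wholly above 1 became 0 with either, beside 19% and 22.7% of all genes. These alternatives were added after seeing the data. Over all genes, 3.89% were past 1.5-fold upward and 13.4% downward with plain totals, and 4.90% and 12.5% with the reduced totals. Downward past 1.5-fold were 3.20% with a pseudocount of 5 and 5.57% with the CPM minimum of 10. Downward past 2-fold were 4.61% with a pseudocount of 0.1, 0.832% with 5, 3.60% with plain totals and 3.71% with the reduced totals. Upward past 2-fold were 2.85% with a pseudocount of 0.1. Of the pairs, 3 had intervals wholly above 1, and 0 with Rela as the second gene, which follows from Rela having a higher ratio than every member. TMM and median-of-ratios factors moved the members' differences by less than their counting intervals. The deposited CPM already carried factors of 0.937 (P95H) and 1.07 (WT), and the TMM factors were 0.937 and 1.07. TMM thus nearly repeats the main scaling, and median-of-ratios factors shifted it by only 0.004 on the log2 scale, so neither is a separate check. Of the marker lists, 9 of 11 had a lower summed share in the P95H library, with 9 also under both alternatives run. The 9 include the list of other tissues, which is Gfap alone, and the interval of its CPM ratio (0.813 to 1.05) held 1. The main shares are of plain totals, under which 54.3% of all genes had an interval wholly below 1. No paired analysis was possible because each genotype had 1 library, and for the same reason no library could be left out.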

Other observations

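Some pathway genes with related functions stood apart from each other, as read ratios within a library show. These pairs were chosen after their values were seen and are given as values. Tnfaip3 and Nfkbia, both feedback inhibitors induced by NF-kB, had 59.7 Tnfaip3 reads per 100 Nfkbia reads in P95H marrow and 126 in WT marrow, an odds ratio of 0.474 (0.458 to 0.491).

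Bcl3 to Nfkbie, an atypical and a classical IkB gene, was at 120 reads per 100 in P95H marrow and 45.2 in WT marrow, an odds ratio of 2.66 (2.36 to 3.0001). Map3k14 to Ikbke was at an odds ratio of 0.384 (0.335 to 0.440), Tnfrsf13c to Tnfrsf1a at 0.236 (0.208 to 0.266), and the TRAF pair Traf4 to Traf6 at 0.497 (0.447 to 0.553). These intervals cover counting error between 1 mouse per genotype, and the shifts in cell type markers ran beside all of them, with their part not tested.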
